A study of Mus musculus with 6 samples.

Results

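Wnt signalling was examined in human leukemic cells grown in mice, through 17 genes picked by name. A deposited row was taken when its symbol began with WNT or FZD and a digit, or was LRP5, LRP6, TCF7, TCF7L1, TCF7L2, AXIN1, AXIN2 or CTNNB1, and 17 of 13892 rows met this. They were 3 Wnt ligand genes, 6 Frizzled receptor genes, the antisense RNA FZD10-AS1, which is not a receptor, and 7 of the 8 genes listed by full name. No deposited row held the symbol AXIN2. The leukemic stem cell (LSC) group held GFP+ CD33+ CD123+ cells, and the bulk group held GFP+ CD33+ cells with no statement about CD123, so bulk cells may include CD123+ cells. Both groups came from the marrow of moribund NSG mice, an immunodeficient strain, carrying acute myeloid leukemia (AML) driven by NPM1c, a cytoplasmic mutant of nucleophosmin, in transduced human hematopoietic stem cells. GFP served as a surrogate for NPM1c, and no group without NPM1c was present. Each of 3 mice, from 3 separate transductions, gave 1 library per group, so the groups had 3 libraries each. RNA was sequenced after amplification, and levels are given as CPM, read counts scaled to a common library size.

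Wnt proteins are secreted lipid-modified ligands that bind Frizzled receptors on the cell surface. With the co-receptors LRP5 or LRP6, the bound receptor halts a cytoplasmic complex built on AXIN1 that otherwise marks beta-catenin, the product of CTNNB1, for destruction. Beta-catenin then enters the nucleus and acts with TCF/LEF factors on target genes, while other Wnt branches act on the cytoskeleton or use calcium. In blood, the pathway is known for its part in lymphoid development and in the self-renewal of some leukemias. TCF4, the dendritic cell factor, is an E protein and not a member of the TCF/LEF family, although TCF7L2 was once called by that name.

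The libraries held 10669560 to 14933494 reads each, of which 3423878 to 9571165 lay outside the MTRNR2L genes, which resemble mitochondrial ribosomal RNA. Bulk replicate 1 was the shallowest, and 3 reads corresponded to 0.514 CPM there and to 0.190 to 0.254 CPM elsewhere. IL3RA, which encodes the sort marker CD123, stood at 139.5, 48.0 and 135.4 CPM in LSC replicates 1, 2 and 3, against 1.54, 2.12 and 2.37 CPM in bulk. The cell content of the groups differed as well, by marker lists chosen with earlier results of these data known. Markers were called higher or lower by the main fit described below, which called 2.71% of all genes higher and 1.33% lower. All 18 of 18 plasmacytoid dendritic cell markers were higher in LSC, with a summed level of 2046 to 3495 CPM in LSC and 130 to 371 CPM in bulk. The 18 include IL3RA itself, and 1 of them had no read in bulk. Of 12 proliferation genes 3 were lower, with sums of 918 to 1506 CPM in LSC and 3513 to 7085 CPM in bulk. B lineage markers summed to 307 to 337 CPM in LSC and 616 to 2516 CPM in bulk (3 of 13 tested lower), highest in bulk replicate 3. Monocyte markers summed to 996 to 2621 CPM in LSC and 3319 to 5331 CPM in bulk (1 of 8 tested lower), and granule genes to 166 to 1457 CPM in LSC and 286 to 5251 CPM in bulk (none of 16 passed). Erythroid genes summed to 63.2 to 268 CPM in LSC and 219 to 990 CPM in bulk (3 of 11 lower), and stem and progenitor genes to 20.6 to 28.9 CPM in LSC and 55.3 to 107 CPM in bulk (none of 8 passed). The name LSC therefore refers to the sort, and no gene of that list passed as higher in LSC. In sorted pools, fewer cells of a type and less RNA per cell cannot be told apart, and the part of cell content in the results that follow was not tested.

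LSC and bulk were compared over 13755 genes with limma, a linear model fitted to all genes at once. The main fit held no term for the mouse, so it did not use the pairing. A gene was called at a Benjamini-Hochberg adjusted p under 0.05. Among the 17 Wnt genes, WNT10A and FZD3 were higher in LSC, none passed as lower, and 15 did not pass. At an unadjusted limma p under 0.05, 2 were lower, FZD5 and LRP6, beside 10.1% of all genes, a share close to that among the 17. With voom on the recovered reads 0 were called lower as well. Of all genes tested 2.71% were called higher and 1.33% lower, and the members were chosen with such results known. With the mouse as a block, 8.25% of all genes were called higher and 7.71% lower, and FZD5 joined as the single member lower in LSC. The median log2 change over the 17 was -0.39, beside -0.00 over all genes tested, with 8 positive and 9 negative changes. The groups did not overlap for 5 members, 2 higher and 3 lower in LSC, or 29.4% of the 17, beside 25.2% of all genes. All 17 passed the filter on low values, but 9 averaged under 5 CPM in both groups and rest on few reads.

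**Figure D1:**
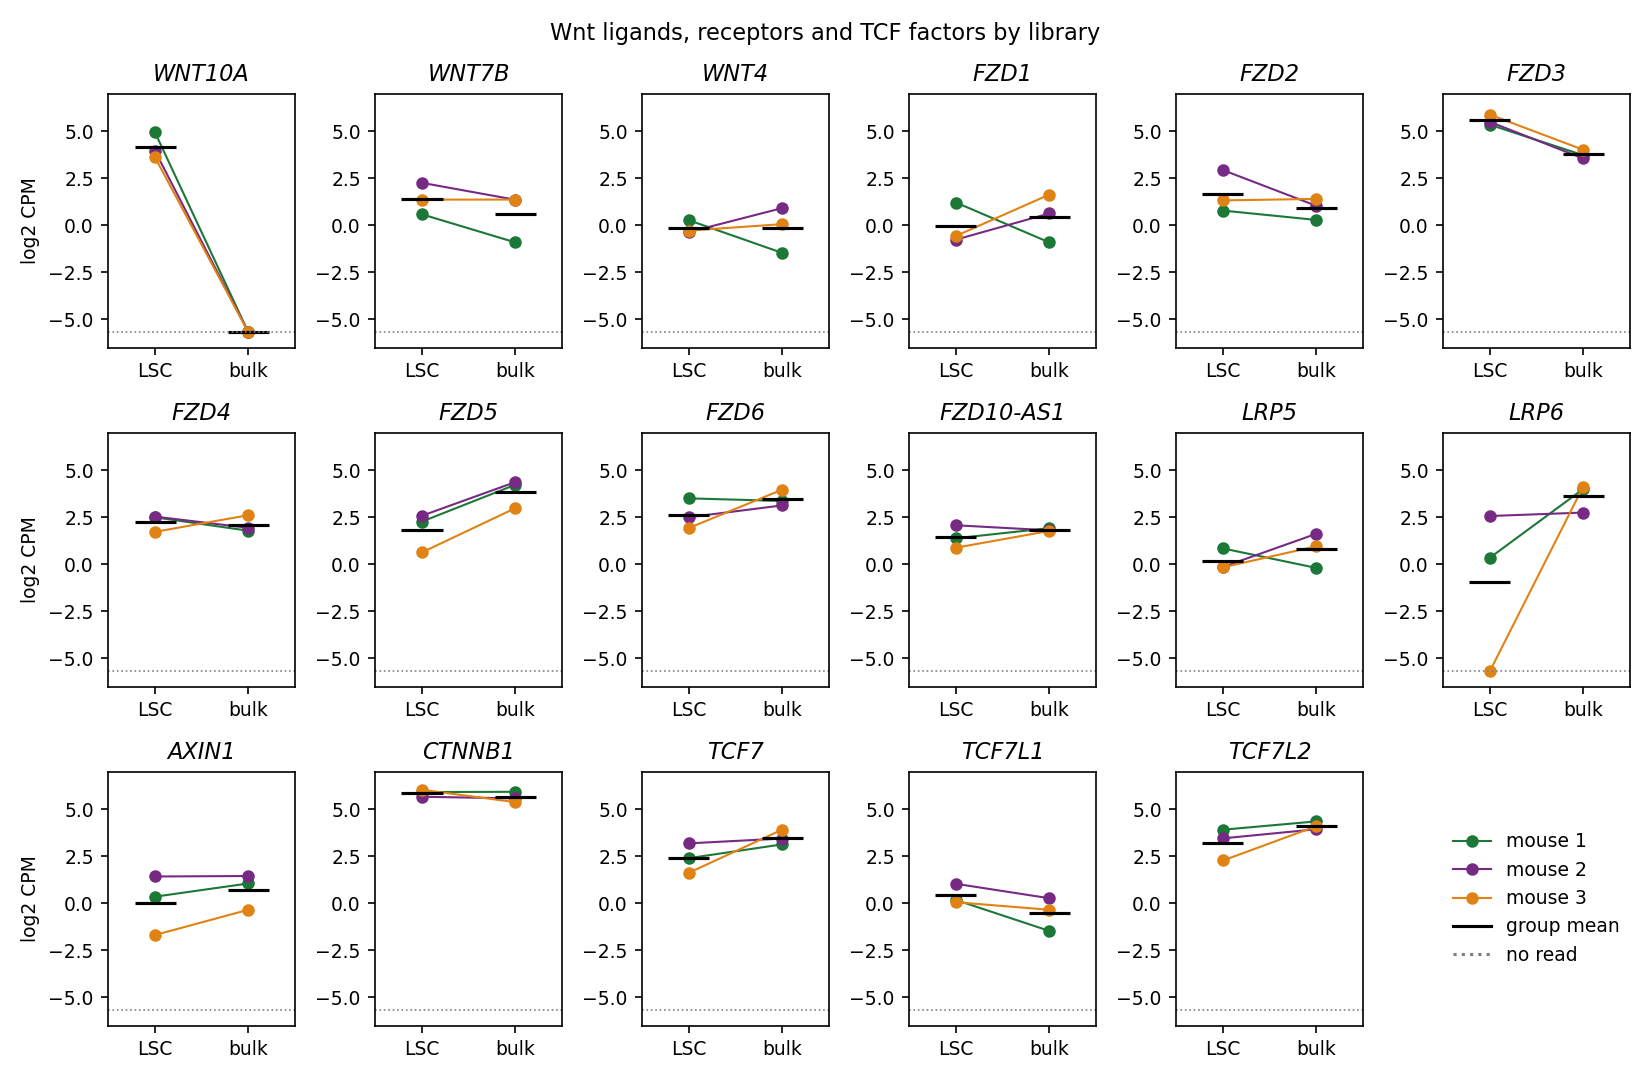
Deposited log2 CPM of the 17 genes in each library, with LSC left of bulk, lines joining the libraries of one mouse, black bars for group means and a dotted line for the value of a library without a read. WNT10A lies on the dotted line in all 3 bulk libraries, FZD3 is higher in LSC in each mouse, FZD5 is lower in each mouse, and LRP6 has no read in LSC replicate 3.

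Among the ligands, WNT10A was read in LSC alone. WNT10A is a ligand known for its role in the development of teeth, hair and skin. WNT10A had 412, 243 and 167 reads in LSC replicates 1, 2 and 3, or 30.4, 15.4 and 12.2 CPM, against 0, 0 and 0 reads in the bulk libraries. Exact 95% counting intervals were 27.6 to 33.5, 13.5 to 17.5 and 10.4 to 14.2 CPM in the LSC libraries, so LSC replicate 1 lay above the other two beyond counting error. Taking 3 reads as the most that a count of 0 allows, the limit was 0.514, 0.254 and 0.192 CPM in bulk replicates 1, 2 and 3. The exact 95% counting intervals of these libraries were wider and reached 0.632, 0.312 and 0.236 CPM. Against a floor of 3 reads in the whole bulk group, WNT10A was at least 212-fold higher in the pooled LSC libraries. This bound leaves out the spread between mice, and with the limits of single bulk libraries the bound within a mouse is lower. Its limma adjusted p was 0.00141, and 0.00143 with the block, and it was higher in 3 of 3 mice. Leaving out both libraries of mouse 1 ended the call without the block (limma adjusted p = 0.0772), and with the block the call stayed (0.0155). An exact two-sided permutation test gave p = 0.1, the smallest that 3 libraries against 3 allow. The permutation, also used for the shares below, exchanges libraries across mice and does not use the pairing. The summed plasmacytoid dendritic cell markers were also higher in LSC, at 3402, 2046 and 3495 CPM in LSC replicates 1, 2 and 3 and 130 to 371 CPM in bulk, and their part in the WNT10A difference was not tested.

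The other ligands rested on few reads, at most 75 in any library for WNT7B and 22 for WNT4, and did not pass. WNT7B, a ligand of lung and kidney development in mice, had 1.48, 4.75 and 2.55 CPM in LSC and 0.514, 2.54 and 2.56 CPM in bulk. The WNT7B groups overlapped, and its log2 change of 0.79 (95% interval -1.06 to 2.65, limma adjusted p = 0.625) did not pass. WNT4, a ligand of kidney and female gonad development, had 1.18, 0.761 and 0.802 CPM in LSC and 0.342, 1.86 and 1.02 CPM in bulk, with a log2 change of 0.04 (interval -2.07 to 2.15). Only 39 LSC and 40 bulk reads lay on WNT4, and the sign of its change turned under other settings. Intervals this wide do not show equal levels.

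**Figure D2:**
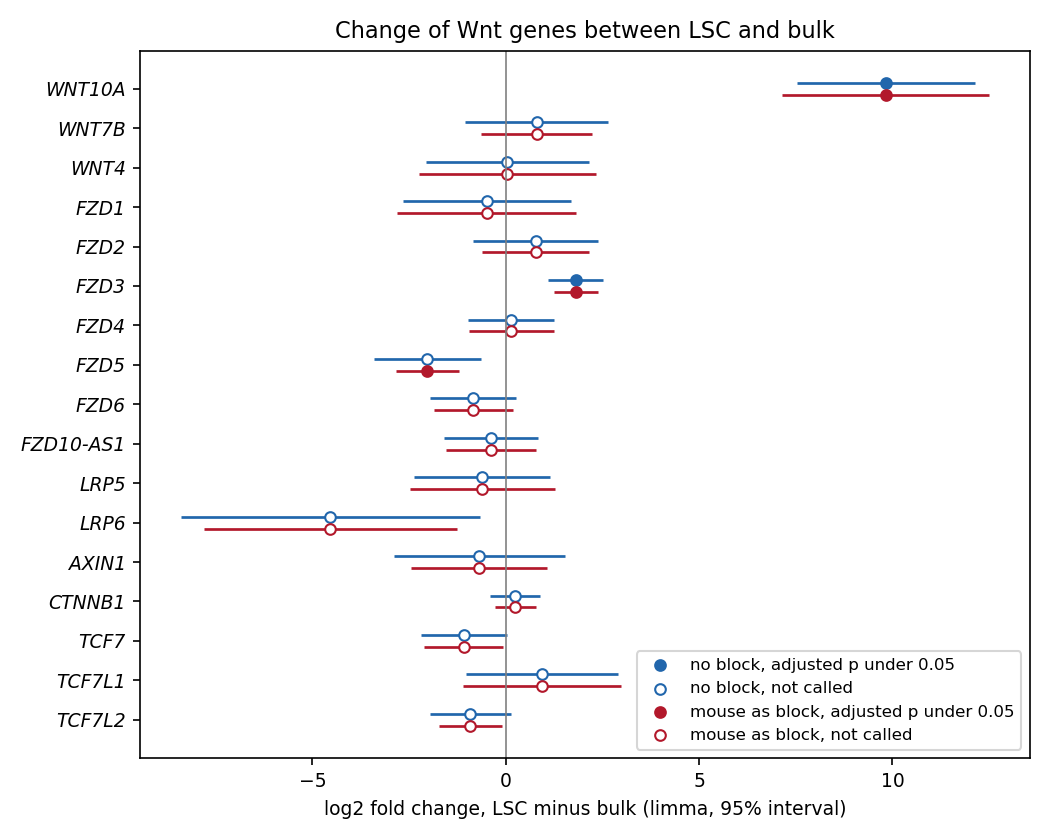
Log2 fold change (LSC minus bulk) of the 17 genes with 95% limma intervals, blue without and red with the mouse as a block, filled where the adjusted p was under 0.05. WNT10A and FZD3 are filled in both fits and FZD5 with the block, while the size of the WNT10A change depends on the prior count and that of LRP6 on a library without a read.

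FZD3 and FZD5 moved in opposite directions among the receptors. FZD3, known in mice for axon guidance and planar cell polarity, had 40.5, 44.9 and 58.8 CPM in LSC replicates 1, 2 and 3, against 13.2, 11.7 and 16.1 CPM in bulk. Every LSC library lay above every bulk library. FZD3 rose 3.50-fold in LSC, or by 1.81 in log2 (SE 0.32, limma adjusted p = 0.0169, and 0.00274 with the block), and the difference was 1.62, 1.94 and 1.87 in mice 1, 2 and 3. The unblocked FZD3 call was lost without LSC replicate 3, bulk replicate 1 or bulk replicate 2, at limma adjusted p of 0.0668, 0.0658 and 0.0615. It was also lost without mouse 1, 2 or 3, at 0.165, 0.126 and 0.0581. The blocked FZD3 call stayed without mouse 1, 2 or 3, at 0.0204, 0.0362 and 2.9e-06. The last of these fits called 1747 of all genes higher and 1567 lower, beside 1135 and 1060 with every mouse. The FZD3 change itself stayed between 1.65 and 1.93 when single libraries or mice were left out.

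FZD5, a receptor required for yolk sac vessels and Paneth cell maturation in mice, had 4.80, 5.96 and 1.53 CPM in LSC, against 18.7, 20.6 and 7.87 CPM in bulk. The FZD5 groups did not overlap, and both libraries of mouse 3 were the lowest of their group. The FZD5 change of -2.03 in log2 (SE 0.62) did not pass without the block (limma adjusted p = 0.107), and with the mouse as a block FZD5 fell in LSC (SE 0.36, adjusted p = 0.00787). The difference was -1.95, -1.78 and -2.35 in mice 1, 2 and 3. The blocked call was lost without mouse 1 or mouse 2 (adjusted p = 0.0621 and 0.0566) with changes of -2.07 and -2.15. Several marker sums were also lower in LSC. Monocyte markers summed to 996 to 2621 CPM in LSC and 3319 to 5331 CPM in bulk, lowest in bulk replicate 1. Granule and erythroid sums were lowest in mouse 3 in both groups, at 166 and 63.2 CPM in LSC and 286 and 219 CPM in bulk. B lineage, proliferation and stem and progenitor sums were lower in LSC as well, while plasmacytoid dendritic cell and T and NK cell sums were higher. The part of cell content in the FZD5 difference was not tested.

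FZD6, known in mice for hair and skin patterning, had 11.3, 5.64 and 3.79 CPM in LSC and 10.3, 8.72 and 15.6 CPM in bulk. The FZD6 groups overlapped, with a log2 change of -0.84 (interval -1.96 to 0.28, limma adjusted p = 0.373) that was 0.14, -0.63 and -2.04 in mice 1, 2 and 3. FZD4, the receptor of the retinal vessel ligand Norrin, had 5.62, 5.77 and 3.28 CPM in LSC and 3.42, 3.81 and 6.08 CPM in bulk, and its change was 0.14 on the log2 scale (interval -0.97 to 1.25). FZD2 had 1.70, 7.61 and 2.48 CPM in LSC and 1.20, 2.03 and 2.62 CPM in bulk, and FZD1 had 2.29, 0.571 and 0.656 CPM in LSC and 0.514, 1.52 and 3.07 CPM in bulk. LSC replicate 2 alone was high for FZD2. Neither passed (log2 change 0.77 with interval -0.84 to 2.38 for FZD2, and -0.49 with interval -2.66 to 1.68 for FZD1). FZD10-AS1 had 2.59, 4.18 and 1.82 CPM in LSC and 3.77, 3.47 and 3.39 CPM in bulk (log2 change -0.39, interval -1.60 to 0.83). Whether reads were assigned by strand is not given, so reads of this antisense RNA and of its partner gene cannot be told apart.

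The make-up of Frizzled reads was described by the share of each gene in a library. FZD3 took 61.2%, 63.8% and 83.4% of the reads on the 6 Frizzled genes in LSC replicates 1, 2 and 3 (Wilson 95% intervals 57.9% to 64.3%, 60.9% to 66.5% and 80.9% to 85.6%), against 27.9%, 24.2% and 31.4% in bulk (22.9% to 33.5%, 20.8% to 27.8% and 28.3% to 34.7%). FZD5 took 5.96% ± 3.33 in LSC and 32.5% ± 14.9 in bulk (mean ± SD, n = 3), and FZD6 took 10.2% ± 6.14 in LSC and 23.4% ± 6.34 in bulk. The groups did not overlap for these 3 shares, and exact permutation tests gave p = 0.1 for each, the smallest possible, or 0.167 adjusted over the 10 shares compared. Shares are of reads and are not corrected for transcript length, so they compare libraries and not genes. Shares within a family are tied, since a larger FZD3 share leaves less for the others, and the FZD6 level itself overlapped between the groups.

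**Figure D3:**
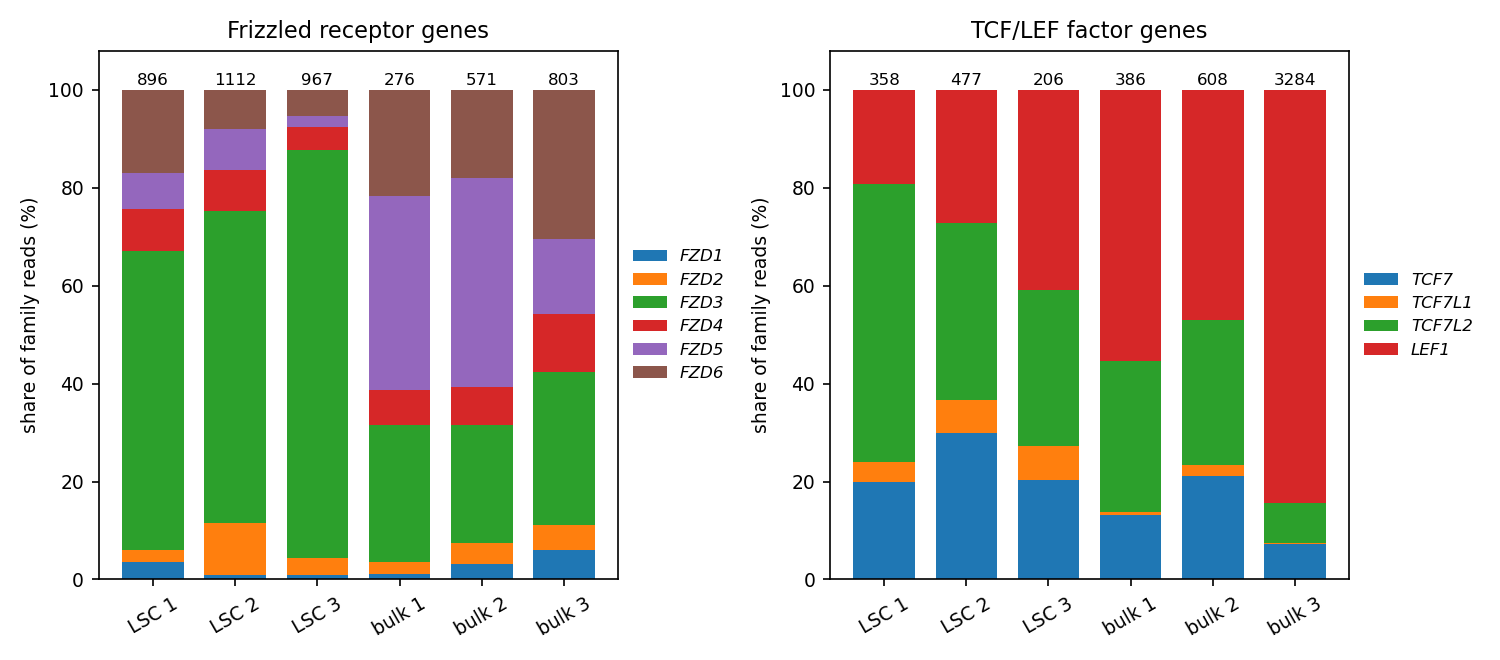
Share of reads (%) of each gene within the 6 Frizzled genes (left) and within TCF7, TCF7L1, TCF7L2 and LEF1 (right), by library with LSC left of bulk; the number above each bar is the family's read count. FZD3 takes 61.2% to 83.4% in LSC and 24.2% to 31.4% in bulk, and LEF1 takes 84.4% in bulk replicate 3, where 3284 family reads were counted.

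The co-receptors did not pass the test. LRP6 had 1.26, 5.90 and 0 CPM in LSC, against 15.9, 6.69 and 17.4 CPM in bulk. LRP6 differed little in mouse 2, with 93 LSC and 79 bulk reads in libraries of unlike depth, while mouse 3 had 0 and 272 reads. The count of 0 in LSC replicate 3 allows up to 0.219 CPM. The log2 changes within mice 1 and 2 were -3.64 and -0.18, and the fitted change of -4.54 (SE 1.72, limma adjusted p = 0.184, and 0.0650 with the block) rests on LSC replicate 3. Without that library the change was -2.16 (adjusted p = 0.199). LRP5 had 1.77, 0.888 and 0.875 CPM in LSC and 0.856, 3.05 and 1.92 CPM in bulk. The LRP5 groups overlapped (log2 change -0.61, interval -2.38 to 1.15), and no library held more than 36 of its reads.

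The scaffold and beta-catenin itself did not pass either. CTNNB1 was well read, at 60.0, 50.5 and 65.2 CPM in LSC and 60.6, 47.6 and 41.4 CPM in bulk. Its log2 change was 0.24 (interval -0.40 to 0.89, limma adjusted p = 0.676). CTNNB1 had the narrowest interval of the 17 genes, and its groups overlapped. The level of the RNA says nothing of the stability of the protein, at which the pathway acts. AXIN1 had 1.26, 2.66 and 0.292 CPM in LSC and 2.05, 2.71 and 0.768 CPM in bulk, lowest in mouse 3 in both groups (log2 change -0.69, interval -2.90 to 1.52).

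None of the 3 TCF members passed, and TCF7L2 and TCF7 had negative and TCF7L1 a positive change. TCF7L2, a factor of intestinal and metabolic tissue, had 3.91, 3.45 and 2.27 log2 CPM in LSC replicates 1, 2 and 3, against 4.35, 3.93 and 4.09 log2 CPM in bulk. The TCF7L2 groups were just apart, and the log2 change of -0.91 (SE 0.46, limma adjusted p = 0.304, and 0.120 with the block) was -0.44, -0.48 and -1.82 in mice 1, 2 and 3. It was -0.45 without LSC replicate 3. TCF7, known for T cell development, had 5.25, 9.07 and 3.06 CPM in LSC and 8.73, 10.8 and 15.03 CPM in bulk. The TCF7 groups overlapped slightly, and the log2 change was -1.09 (SE 0.49, adjusted p = 0.254, and 0.131 with the block). T and NK cell markers, 11 of 16 listed, summed to 172 to 240 CPM in LSC and 94.9 to 142 CPM in bulk, and 1 of the 11 passed as higher. The list includes CD4, which plasmacytoid dendritic cells also carry. TCF7L1, mostly a repressor, had 1.11, 2.03 and 1.02 CPM in LSC and 0.342, 1.19 and 0.768 CPM in bulk (log2 change 0.94, interval -1.04 to 2.91).

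LEF1, the remaining factor of the family, was outside the name rule and fell in LSC. LEF1 had 5.10, 8.24 and 6.13 CPM in LSC, against 36.6, 24.2 and 177 CPM in bulk. Bulk replicate 3 stood far above all other libraries. LEF1 changed by -3.08 in log2 (SE 0.66; limma adjusted p = 0.0345, and 0.00679 with the block), and by -2.22 (adjusted p = 0.0323) without bulk replicate 3. The unblocked call was lost without LSC replicate 1, 2 or 3 or bulk replicate 1 (adjusted p = 0.1004, 0.0579, 0.0914 and 0.0684), and in 9 of 21 alternatives in all. The summed B lineage markers were also highest in bulk replicate 3, at 2516 CPM against 616 and 676 CPM in bulk replicates 1 and 2, and their part in the LEF1 difference was not tested. LEF1 took 29.1% ± 10.9 of TCF/LEF reads in LSC and 62.3% ± 19.6 in bulk, and TCF7L2 41.6% ± 13.2 in LSC and 22.8% ± 12.8 in bulk (mean ± SD, n = 3 each; exact permutation p = 0.1 for both, 0.167 adjusted over the 10 shares). These shares are tied as well: the TCF7L2 share was higher in LSC while the TCF7L2 level itself was lower there in 3 of 3 mice.

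Other genes of the pathway were described through 6 lists with 96 tested genes, chosen with earlier results known. Their share of calls in either direction was close to that of all genes, but the calls leaned to lower in LSC. By limma none of the 96 rose and 3 fell, or 3.12% beside 4.04% of all genes tested (2.71% higher and 1.33% lower). At an unadjusted p under 0.05, 6 of 96 were higher and 18 of 96 lower, beside 10.2% and 10.1% of all genes. With the block 5 rose and 14 fell, or 19.8% beside 16% of all genes (8.25% higher and 7.71% lower). Besides TLE3, for which left-out mice were not examined, 15 genes named here passed only with the block. Of these 15, 12 lost the call in the blocked fit without mouse 1 and 12 without mouse 2. Without mouse 1 the exceptions were CTBP1, SMARCA4 and TLE4, and without mouse 2 they were BTRC, PYGO1 and ROCK2. None of the 15 was lost without mouse 3, a blocked fit that called 1747 of all genes higher and 1567 lower. Over all genes the block called 1135 higher and 1060 lower with every mouse. It called 386 and 344 without mouse 1, and 444 and 296 without mouse 2. Secreted modulators were represented by 2 tested genes. PORCN, the enzyme that attaches the lipid to Wnt proteins, averaged 1.01 CPM in LSC and 2.04 CPM in bulk, and APCDD1, a Wnt inhibitor, 8.46 CPM in LSC and 2.71 CPM in bulk (log2 changes -0.89 and 1.77, limma adjusted p = 0.530 and 0.401).

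Of 7 co-receptors and regulators of receptor turnover none passed without the block, with a median log2 change of -1.34. RYK, a Wnt receptor related to tyrosine kinases, had 3.10, 5.77 and 2.63 CPM in LSC, against 13.0, 13.8 and 10.8 CPM in bulk. RYK did not overlap between the groups (log2 change -1.78, limma adjusted p = 0.0633), and it fell with the block (adjusted p = 0.0163). LGR4, a receptor of R-spondins, had 2 reads in all over the LSC libraries and 74 over the bulk libraries. The pooled bulk over LSC ratio was 47.8 (exact 95% counting interval 12.8 to 402, which leaves out the spread between mice). LGR4 did not pass (limma adjusted p = 0.0661, and 0.0591 with the block). The ubiquitin ligase genes RNF43 and ZNRF3, which remove Frizzled receptors from the surface, averaged 1.06 and 5.37 CPM in LSC and 2.29 and 3.27 CPM in bulk. KREMEN1, a receptor of Dickkopf inhibitors, averaged 44.0 CPM in LSC and 31.4 CPM in bulk, ROR1, a receptor of WNT5A, 4.06 CPM in LSC and 19.5 CPM in bulk, and MESDC2, a chaperone of LRP5 and LRP6, 45.5 CPM in LSC and 27.0 CPM in bulk. These last 5 did not pass in either fit.

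None of 24 cytoplasmic transducers and members of the destruction complex passed without the block, and their median log2 change was 0.10. With it, 1 rose and 2 fell, or 12.5% of the list beside 16% of all genes. APC, a scaffold of the destruction complex, had 162, 103 and 107 CPM in LSC, against 251, 151 and 277 CPM in bulk (log2 change -0.85, limma adjusted p = 0.188, and 0.0335 with the block). BTRC, the subunit that recognizes marked beta-catenin, averaged 8.25 ± 7.30 CPM in LSC and 20.9 ± 9.96 CPM in bulk (SD, n = 3; limma adjusted p = 0.252, and 0.0362 with the block). DACT1, a binding partner of Dishevelled, had 5.32, 7.80 and 25.1 CPM in LSC and 0.685, 1.78 and 15.99 CPM in bulk, high in mouse 3 in both groups (log2 change 1.90, limma adjusted p = 0.349, and 0.0362 with the block). With the block and voom neither BTRC nor DACT1 passed (adjusted p = 0.0578 and 0.113).

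**Figure D4:**
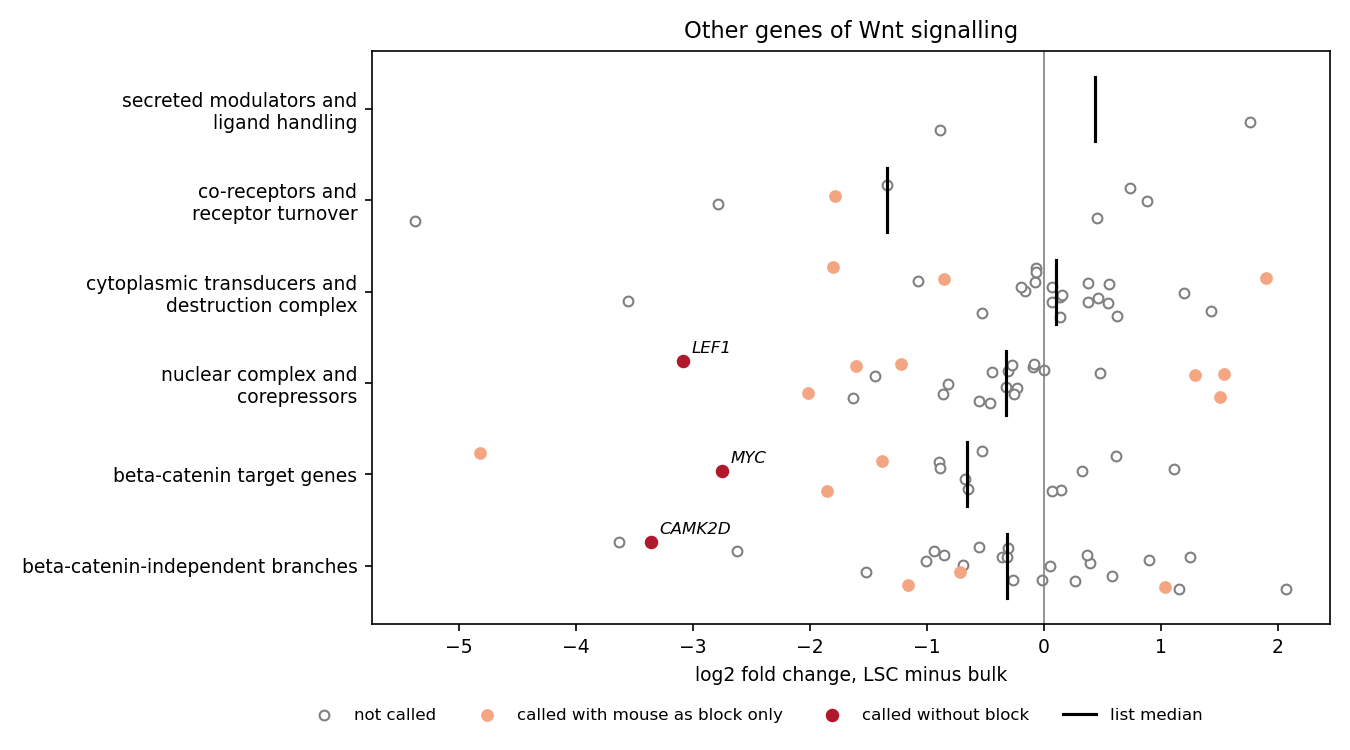
Log2 fold change (LSC minus bulk) of the 96 other tested Wnt pathway genes, 1 point a gene, by list; vertical bars are list medians, and points are spread vertically for display. The 3 genes called without the block, LEF1, MYC and CAMK2D, were all lower in LSC, and 5 genes higher and 14 lower were called with it.

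In the nuclear complex 1 of 23 genes fell, LEF1, and 22 did not pass, with a median log2 change of -0.32. With the block 3 rose and 4 fell, or 30.4% of the list beside 16% of all genes. SMARCA4, a chromatin remodelling ATPase, had 29.9, 36.3 and 26.8 CPM in LSC, against 60.3, 82.8 and 73.5 CPM in bulk, and lay at the threshold (log2 change -1.22, limma adjusted p = 0.05001, not passed, and 0.00941 with the block). The corepressor genes did not move as one. CTBP1 had 41.2, 58.0 and 53.3 CPM in LSC and 18.1, 27.0 and 10.4 CPM in bulk, and rose with the block (log2 change 1.55, adjusted p = 0.0125). TLE4, of the Groucho family, had 100.9, 43.0 and 51.3 CPM in LSC and 194, 114 and 284 CPM in bulk, and fell with the block (log2 change -1.61, adjusted p = 0.00834). AES, a short relative of the Groucho proteins, had 37.6, 18.6 and 32.2 CPM in LSC and 8.56, 10.1 and 17.7 CPM in bulk, and PYGO1, a cofactor of beta-catenin, 2.44, 6.21 and 2.48 CPM in LSC and 20.9, 13.4 and 9.02 CPM in bulk. AES rose and PYGO1 fell with the block (limma adjusted p = 0.0329 and 0.0197). The groups did not overlap for any of these 5 genes, which were named because they were called. In the whole list the groups were apart for 3 genes higher and 7 lower of 23, beside 13.2% and 11.9% of all genes. TLE3, also of the Groucho family, averaged 12.9 CPM in LSC and 5.03 CPM in bulk. Unlike TLE4, TLE3 rose with the block (log2 change 1.51, limma adjusted p = 0.0419). Whether the TLE3 call stays when a mouse is left out was not examined.

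Of 14 genes known as beta-catenin targets in other tissues 1 fell, MYC, and 13 did not pass, with a median log2 change of -0.66. MYC, a growth regulator, had 18.0, 11.5 and 4.23 CPM in LSC, against 88.2, 45.0 and 67.9 CPM in bulk (log2 change -2.75, SE 0.53, limma adjusted p = 0.0235). The call was lost without bulk replicate 1 or 3 (adjusted p = 0.0925 and 0.0528), and in 6 of 21 alternatives in all. The summed proliferation genes, given above, were also lower in every LSC library than in any bulk library. With the block 4 fell and none rose, or 28.6% of the list beside 16% of all genes. MITF, a factor of pigment and mast cells, had 4, 10 and 0 reads in LSC and 26, 48 and 77 in bulk. The pooled bulk over LSC ratio was 13.9 (exact 95% counting interval 8.06 to 26.1, which leaves out the spread between mice). The limma adjusted p of MITF was 0.0798 without the block and 0.0312 with it. JUN, a stress-responsive factor, and the vessel growth factor gene VEGFA changed by -1.39 and -1.85 in log2. Their limma adjusted p was 0.229 and 0.349 without the block and 0.0476 and 0.0107 with it, and the groups of both overlapped. These genes respond to many signals, so their levels are no readout of beta-catenin.

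Of 26 genes of the branches that do not use beta-catenin 1 fell, CAMK2D, and 25 did not pass, with a median log2 change of -0.31. CAMK2D, a calcium-dependent kinase, had 7.09, 2.85 and 5.62 CPM in LSC, against 41.8, 20.6 and 143 CPM in bulk, highest in bulk replicate 3 as LEF1 was (log2 change -3.36, SE 0.67, limma adjusted p = 0.0283). The call was lost without LSC replicate 1, 2 or 3 or bulk replicate 1 (adjusted p = 0.0579, 0.0650, 0.0649 and 0.0726), and in 9 of 21 alternatives in all, while it passed with the block (0.00172). ROCK2, a kinase that acts on the cytoskeleton, had 126, 105 and 100.7 CPM in LSC and 254, 189 and 309 CPM in bulk. DAAM1, a formin that binds Dishevelled, had 102, 63.0 and 110 CPM in LSC and 53.8, 33.5 and 45.6 CPM in bulk. NFATC3, a calcium-regulated factor, averaged 70.2 ± 3.35 CPM in LSC and 116 ± 10.4 CPM in bulk (SD, n = 3). The groups of these 3 genes did not overlap, and with the block DAAM1 rose and ROCK2 and NFATC3 fell (limma adjusted p = 0.0149, 0.00938 and 0.0414). In the whole list the groups were apart for 6 genes higher and 6 lower of 26, beside 13.2% and 11.9% of all genes. With the block 15.4% of the list was called, beside 16% of all genes.

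Genes with the most similar pattern to WNT10A and FZD3 were picked by Pearson's r of log2 CPM over the 6 libraries, among 13738 other genes. For WNT10A these were NLRP7, CDHR5, KRT5, ABHD6 and NPC1, with r of 0.9992 to 0.9998. The first 3 of these also had 0 reads in bulk, and 245 genes had r above 0.95 with WNT10A. For FZD3 they included ZNF224, MCHR2, TPM2 and ARF4, with r of 0.9914 to 0.9943, and 211 genes were above 0.95. The 6 libraries share 3 mice and 2 sorts, so these values only describe the libraries.

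In the authors' deposited table, whose fold change is coded bulk minus LSC, WNT10A stood at -10.73 with a false discovery rate of 0.0813 and FZD3 at -1.81 with 0.207. In the same deposited table FZD5 stood at 2.03 with a false discovery rate of 0.268 and LRP6 at 3.77 with 0.282, so none of these reached 0.05 there. These values come from the same libraries and are no separate support.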

How the data were processed

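RNA of 6 libraries was analysed from 1 table of the whole series. Per the submitters' processing notes, RSEM, Bowtie2 and edgeR and the build hg19 were used, with no version or role. Sample columns deposited by the authors hold log2 CPM with a prior, a scale read from the values. The authors' own deposited log2 fold change, likelihood ratio (a score) and p-value with its false discovery rate, per the file headers, were used only where named. CPM here is the antilog less the shared floor (0.0197 CPM). Dividing by each library's step gave reads, whole within 0.1 for 100% of values up to 3000 reads. A gene was tested if 3 or more libraries reached 1 CPM (137 removed), with limma 3.58.1 in R 4.3.3 (eBayes with trend, two-sided). The code was tested on simulated data.

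Libraries of the same number came from 1 mouse, and their deviations from group means correlated at 0.33, 0.35 and 0.30, so numbers pair the samples. The blocked value stands beside a result it changed. Alternatives were another pseudocount (1 CPM), filter (none, 5 CPM), scaling, variance model, the block, and left-out libraries and mice. Amplified reads are not independent molecules, so intervals cover counting error only. RSEM can divide reads among relatives. Named were all members, called genes of each list (up to 6 a list, by moderated statistic), LEF1, MYC and IL3RA, all genes of the 2 short lists, and the 5 genes most like WNT10A and FZD3, of which 1 is not reported here. Members and lists were chosen with earlier results of these data known. No sequence or coordinate is shown, since no human reference was used here.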

Additional observations from a re-analysis of the deposited data

How the results depend on the processing

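WNT10A was higher in LSC under all 21 alternatives and called in 20; its fitted size depends on the prior, with a log2 change of 9.83 as deposited, 4.24 with log2(CPM + 1), 8.52 with voom and 9.45 to 10.11 when libraries or mice were left out. FZD3 was higher under all 21 and called in 14. It was lost with eBayes without trend (log2 change 1.81, adjusted p = 0.0510), and without single libraries or mice it was 1.65 to 1.93. The number of Wnt members higher was 2, or 1 with eBayes without trend, and 0 to 2 when libraries or mice were left out. The number lower was 0, or 1 with the replicate block, 1 with the block and voom (FZD5 in each), 1 with the block without mouse 2 (LRP6) and 2 with the block without mouse 3 (FZD5 and LRP6).

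LEF1, MYC and CAMK2D lost the call in 9, 6 and 9 of the 21, with eBayes without trend (adjusted p = 0.0974, 0.0770 and 0.0805), LEF1 and CAMK2D with voom (0.0666 and 0.0523), and all 3 without mouse 1 (0.226, 0.127 and 0.182), mouse 2 (0.0767, 0.105 and 0.0654) or mouse 3 (0.0584, 0.0574 and 0.0614). With the block all 3 passed with every mouse, with voom, and without mouse 1, 2 or 3. The block was not fitted without trend.

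Over all genes, 373 were higher and 183 lower. With log2(CPM + 1) 302 were lower. With eBayes without trend 197 were higher and 54 lower. With the replicate block 1135 were higher and 1060 lower, with the block and voom 1216 and 1217, and with the block without mouse 3 1747 and 1567. With the block without mouse 1 or 2, 344 and 296 were lower. Leaving out libraries or mice without the block gave 37 to 346 higher and 0 to 169 lower. Without mouse 1 no gene was called lower by limma, although 841 had an unadjusted p under 0.05. The cause of these shifts was not tested. Scaling without the MTRNR2L rows moved the median of all genes to 0.05 and changed no member's call.

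Signs of low members turned. WNT4 was -0.056 with log2(CPM + 1), -0.22 with voom, -0.40 with the block and voom, -0.81 with the block without mouse 1, and -0.81 to 0.69 when libraries or mice were left out. FZD1 was 0.36 with the block without mouse 3 and -1.79 to 0.36 when libraries or mice were left out. FZD4 was -0.14 and -0.087 with the block without mouse 1 or 2, and -0.14 to 0.65 when libraries or mice were left out. AXIN1 then ran from -1.38 to 0.17. Under the filter of 5 CPM, 9 members remained tested.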
